A study of Homo sapiens with 2 samples.

Results

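The RIP-seq peaks of FLAG-tagged USP39 assigned to the ubiquitin ligase genes HECTD4 and ANAPC5 were examined. They were taken as every listed peak whose gene name is HECTD4 or ANAPC5, which gave 7 of the 368 listed peaks and 2 of the 161 listed genes. HECTD4 held 5 of these peaks and ANAPC5 held 2, all of them on chromosome 12, which carries 205 of the listed peaks. RNA immunoprecipitation sequencing (RIP-seq) recovers the RNA held by a protein and reads it against input RNA. The experiment used A2780, an established human ovarian cancer cell line, made to express FLAG-tagged USP39. Cells were cross-linked, nuclei were lysed and sonicated, and RNA bound by anti-FLAG beads was treated with DNase I before sequencing. Both groups came from these FLAG-USP39 cells: the FLAG-USP39 RIP group is 1 library of precipitated RNA, and the input group is 1 library made from 10% of the total RNA. The tagged protein was expressed ectopically, a precipitate from cells without the tag was not analysed here, and neither library was repeated, so the values carry no replicate error. The peak list used here gives positions without read counts, enrichment or strand, and the fold enrichment of the peaks was not analysed here. The list also does not say how the input library entered the calling of peaks. The peaks are therefore described by position and not ranked.

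USP39 is a protein of the spliceosome, where it belongs to the tri-snRNP that joins the pre-mRNA before catalysis. It carries the fold of a ubiquitin protease but lacks residues of the usual catalytic site. HECTD4 encodes a very large protein with a HECT domain, the C-terminal catalytic fold that takes ubiquitin from an E2 enzyme onto its own cysteine and passes it to a substrate. ANAPC5 encodes a scaffold subunit of the anaphase-promoting complex (APC/C), the RING-type ligase that marks cyclin B and securin for degradation so that cells can leave mitosis.

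Both genes are read from the minus strand, and all sequences below are from hg19 in the direction of transcription. The peaks that crossed an exon border are shown because they place the boundary of exon and intron inside the precipitated interval. Capitals mark exon bases of the canonical transcript and lower case marks intron bases. The peaks lie at chr12:112647801-112648000 (HECTD4 exon 50), chr12:112630401-112630600 (HECTD4 exon 59), chr12:121783801-121784000 (ANAPC5 exon 4) and chr12:121766201-121766400 (ANAPC5 exon 10).
HECTD4 exon 50 peak: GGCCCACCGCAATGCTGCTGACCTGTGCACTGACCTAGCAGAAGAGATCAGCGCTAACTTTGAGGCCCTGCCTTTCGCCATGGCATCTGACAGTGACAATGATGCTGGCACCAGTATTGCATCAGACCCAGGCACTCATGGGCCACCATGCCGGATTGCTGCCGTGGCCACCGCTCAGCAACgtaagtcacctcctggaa
HECTD4 exon 59 peak: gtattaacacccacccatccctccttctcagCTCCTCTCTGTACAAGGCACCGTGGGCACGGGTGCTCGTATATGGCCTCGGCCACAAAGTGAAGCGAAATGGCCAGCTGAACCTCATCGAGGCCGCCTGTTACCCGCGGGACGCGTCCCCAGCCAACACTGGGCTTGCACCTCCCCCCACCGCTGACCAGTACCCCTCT
ANAPC5 exon 4 peak: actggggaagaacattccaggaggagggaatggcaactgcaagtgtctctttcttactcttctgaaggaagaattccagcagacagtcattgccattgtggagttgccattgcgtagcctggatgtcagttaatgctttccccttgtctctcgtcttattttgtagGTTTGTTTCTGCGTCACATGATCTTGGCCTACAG
ANAPC5 exon 10 peak: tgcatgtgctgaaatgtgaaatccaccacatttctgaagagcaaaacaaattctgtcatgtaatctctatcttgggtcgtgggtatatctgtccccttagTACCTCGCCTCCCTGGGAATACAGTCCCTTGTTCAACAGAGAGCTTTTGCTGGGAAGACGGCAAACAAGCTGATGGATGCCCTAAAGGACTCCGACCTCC
The exon 50 peak ran out of its exon across a 5′ splice site, whereas the other 3 ran into their exon across a 3′ splice site.

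HECTD4 (ENSG00000173064) spans chr12:112597992-112820243, a length of 222252 bp. Its canonical transcript has 76 exons with a median length of 154 bp, 75 introns with a median length of 1289 bp, and 4418 codons. The 5 peaks lay in a stretch of 25400 bp that started 172235 bp downstream of the transcript start, when 77.5% of the transcript's span had been passed, and ended at 88.9%. They touched 3 exons, all between exon 50 and exon 61, and left the 49 exons before and the 15 exons after that stretch without a listed peak. The peaks of HECTD4 were thus grouped in the later part of the gene, within its coding region.

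The first HECTD4 peak in the direction of transcription covered the last 182 bp of exon 50, which is 76.5% of that exon of 238 bp, and the first 18 bp of intron 50, which is 1384 bp long. It held the 5′ splice site and lay 56 bp from the 3′ splice site of the same exon. Its exon bases encode codons 2562 to 2623. This was the only peak of both genes that contained a 5′ splice site of the canonical transcript.

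The next peak, at chr12:112631601-112631800, lay wholly in intron 56, which is 1210 bp long. It ended 123 bp before the 3′ splice site of exon 57, and the nearest 5′ splice site, at the far end of exon 57, was 328 bp away. No annotated transcript of HECTD4 has an exon there, so this was the only peak of both genes without any exon base.

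The exon 59 peak lay 1000 bp further on. It began in the last 31 bp of intron 58, a short intron of 295 bp, crossed the 3′ splice site and covered 169 bp, or 82.0%, of exon 59. The 5′ splice site of the exon was 37 bp beyond the peak. The exon bases encode codons 3029 to 3085, so most of this 206 bp exon lay inside 1 bin.

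The other HECTD4 peaks both fell in exon 61, the exon with the most coding sequence in the gene, with 1307 bp and 9.86% of the coding bases. They lay at chr12:112623001-112623200 and chr12:112622601-112622800, were entirely exonic and each covered 15.3% of the exon. The first began 97 bp after the 3′ splice site and encodes codons 3190 to 3257. The second began 497 bp after that site, ended 610 bp before the 5′ splice site and encodes codons 3324 to 3390. Exon 61 overlaps 8 bins of 200 bp, of which these 2 were listed, with 1 unlisted bin and 66 untouched codons between them.

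The coding part of HECTD4 touched by peaks thus ran from codon 2562 to codon 3390 and ended 1028 codons before the end of the coding sequence. The catalytic HECT domain of this family forms the C-terminal end of the protein, and no listed peak overlapped the last 1028 codons. Protein positions of domains were not computed here. In all, 751 bp of coding sequence lay in peaks, or 5.67% of the coding bases, while the peaks covered 0.45% of the gene span, and no UTR base of the canonical transcript was in a peak.

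**Figure D1:**
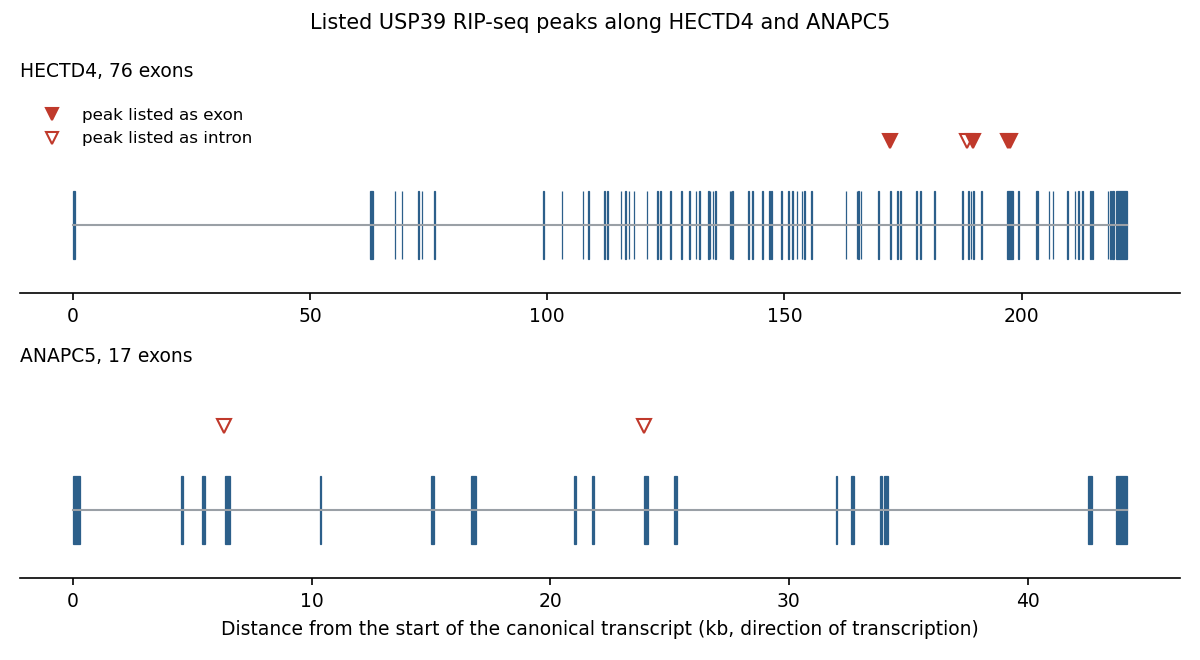
Exons of the canonical transcripts of HECTD4 (top) and ANAPC5 (bottom) as blue boxes along the distance from the transcript start in kb, with introns as a grey line and each listed peak as a triangle, filled where the list assigns it to an exon and open where it assigns it to an intron. The 5 HECTD4 peaks sit together in the later part of the gene, and the 2 ANAPC5 peaks sit at exons 4 and 10 of 17.

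ANAPC5 (ENSG00000089053) spans chr12:121746048-121837699, a length of 91652 bp. Its canonical transcript covers chr12:121746048-121790214 with 17 exons of median length 122 bp, 16 introns of median length 1327.5 bp, and 755 codons. The peaks stood at exons 4 and 10, 17400 bp apart. They began when 14.1% of the transcript's span had been passed and ended at 54.4%. This places them earlier in their canonical transcript than the peaks of HECTD4 in theirs. The gene span of ANAPC5 is longer than that transcript, and positions along it were not compared. Both crossed a 3′ splice site of the canonical transcript, and both were assigned to introns in the list.

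The exon 4 peak covered the last 166 bp of intron 3, which is 864 bp long, and the first 34 bp of exon 4, or 17.6% of that exon of 193 bp. These exon bases encode codons 133 to 144. The 5′ splice site of exon 4 was 159 bp beyond the peak. Most of the peak was therefore intron in the canonical transcript. The annotation also holds a retained-intron transcript whose exon of 1167 bp covers the whole peak, and a transcript without a defined coding sequence, with an exon of 91 bp at chr12:121783839-121783929 that lies wholly inside the peak. Which of these RNAs was precipitated was not tested, since the list gives no reads.

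The exon 10 peak was split evenly, with the last 100 bp of intron 9 and the first 100 bp of exon 10. Intron 9 is 2085 bp long, the exon bases make up 54.9% of exon 10, and they encode codons 375 to 408. The 5′ splice site of the exon was 82 bp beyond the peak. This peak also held both annotated 3′ splice sites that follow intron 9. The upstream one, whose first exon base is chr12:121766300, is used by the canonical transcript and 8 annotated transcripts in all, of which 2 are protein-coding. The downstream one, whose first exon base is chr12:121766261, is used by 4 transcripts, of which 2 are protein-coding. The choice between them keeps or removes 39 bp, equal to 13 whole codons (375 to 387), so the reading frame is the same after either site.
segment between the 3′ splice sites: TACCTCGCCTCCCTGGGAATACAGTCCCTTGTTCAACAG
This segment, at chr12:121766262-121766300, is exonic in the canonical transcript and intronic in the transcripts that use the downstream site. Use of either site in A2780 cells was not analysed here.

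In all, 134 bp of ANAPC5 coding sequence lay in peaks, or 5.92% of its coding bases, and no UTR base of the canonical transcript did. That share is close to the 5.67% of HECTD4 although the coding sequence of ANAPC5, with 2265 bp, is much shorter than the 13254 bp of HECTD4.

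**Figure D2:**
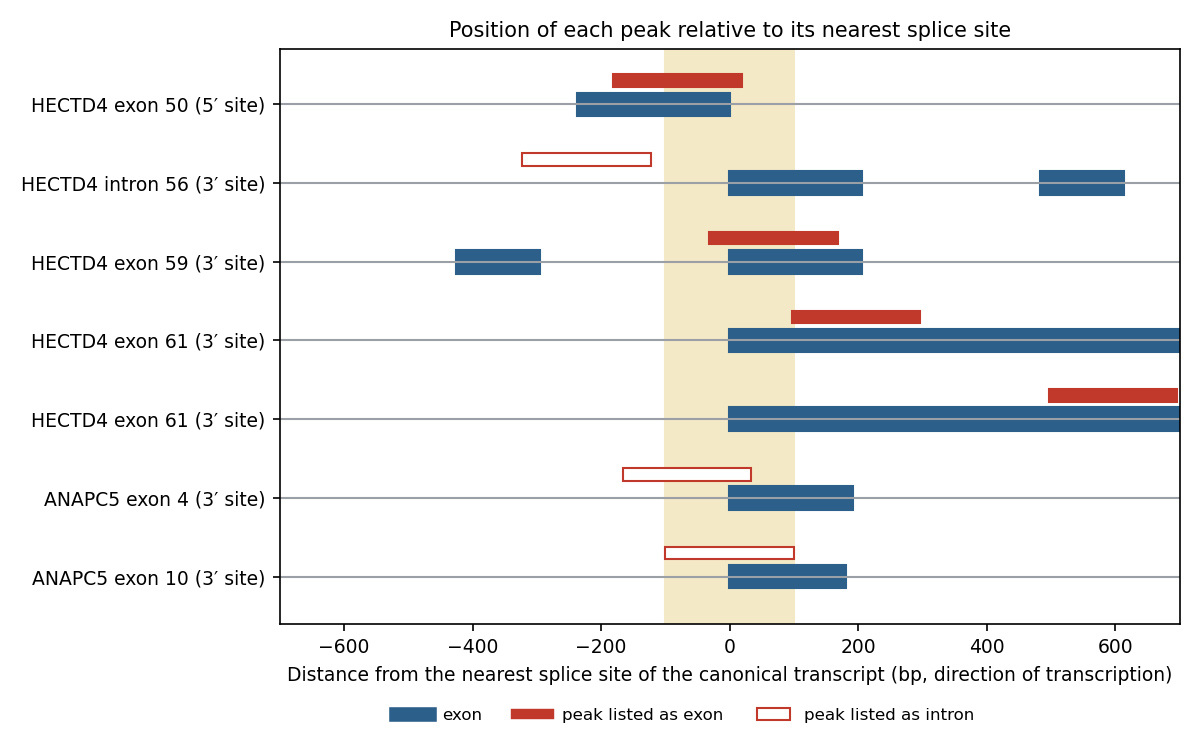
Each of the 7 peaks (red boxes, filled where listed as exon and open where listed as intron) and the canonical exons (blue) in bp from the nearest splice site of the canonical transcript, which stands at 0, with the 100 bp window shaded. The peaks at HECTD4 exon 59 and at ANAPC5 exons 4 and 10 cross a 3′ splice site, the peak at HECTD4 exon 50 crosses a 5′ splice site, and the others lie beside the site without holding it.

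Peaks were next counted by distance to the splice sites of their own gene. In 5 of the 7 peaks a base lay within 100 bp of a splice site in any annotated transcript. The same held for 117 of the 306 listed peaks that overlap their own annotated gene (38.2%, 95% Wilson interval 33.0 to 43.8%), a background that includes these 7. On chromosome 12 the median peak width was 400 bp and the widest peak was 5000 bp. All 7 peaks were 200 bp wide, the smallest width there, as were 95 of the 205 listed peaks of that chromosome (46.3%). Among the 91 matched peaks of chromosome 12 with this width, 45 lay within the window (49.5%, 39.4 to 59.5%). The intervals here and below cover counting error only and treat peaks as independent. The 306 matched peaks came from 142 genes, so the intervals can be too narrow. Whether the 7 peaks differ from the background was not tested. The peaks closest to the limit were those in HECTD4 exon 61, at 97 bp and inside it, and in HECTD4 intron 56, at 123 bp and outside it.

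A 3′ splice site of the canonical transcript lay inside 3 of the 7 peaks and a 5′ splice site inside 1. Among the 91 matched peaks of the same width, 28 held a 3′ splice site (30.8%) and 17 held a 5′ splice site (18.7%). The remaining 3 peaks, all in HECTD4, held neither. The 3′ splice sites were held by both ANAPC5 peaks and 1 HECTD4 peak, counts too small to set the genes apart from other peaks of this width.

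An exon of any transcript was overlapped by 6 of the 7 peaks, and coding sequence by the same 6. The share of all matched peaks with coding overlap was not computed, so nothing is read from the coding count. The share with exon overlap was 64.4% over the 306 matched peaks (197 peaks, 95% Wilson interval 58.9 to 69.5%). Over the 91 peaks of the same width it was 71.4% (65 peaks, 61.4 to 79.7%). Both backgrounds include these 7 peaks, and whether the exon overlap of these genes differs from that of other narrow peaks was not tested. The structure of the genes gives another scale. Of the 1113 bins of HECTD4, 16.5% overlapped an exon and 19.1% lay within 100 bp of a splice site, and of the 459 bins of ANAPC5 the shares were 17.2% and 11.8%. With the canonical transcript alone, 6.97% of the ANAPC5 bins overlapped an exon. The peaks thus had a larger share with exon overlap than the bins of their own genes, a difference that was not tested.

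**Figure D3:**
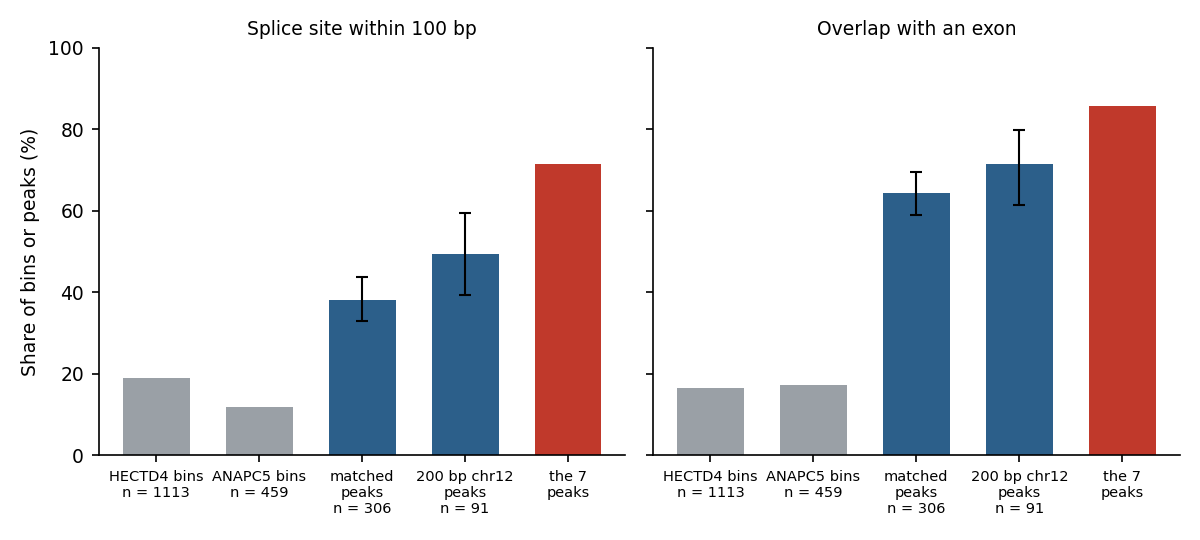
Share in percent of bins or peaks with a splice site within 100 bp (left) and with exon overlap (right), for all 200 bp bins of each gene (grey), all matched listed peaks and matched chromosome 12 peaks of 200 bp (blue, with 95% Wilson intervals), and the 7 peaks of HECTD4 and ANAPC5 (red, 5 of 7 and 6 of 7, without error). Bins of the genes are lowest in both panels, and the 7 peaks rest on few counts.

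The splice sites at the peaks were compared with those of all introns of the canonical transcript of the same gene, which include the canonical sites at the peaks. Each 5′ splice site is given as its last 3 exon bases in capitals and first 6 intron bases, and each 3′ splice site as its last 20 intron bases and first 3 exon bases in capitals. Shown are the sites of canonical transcripts inside or within 100 bp of a peak, and all other annotated sites of ANAPC5 there. The exon base at the border is at chr12:112647819 and chr12:112648056 for exon 50, chr12:112630364 and chr12:112630569 for exon 59 and chr12:112623297 for exon 61 of HECTD4. In ANAPC5 it is at chr12:121783834 for exon 4, and chr12:121766119 and chr12:121766300 for exon 10, with the downstream site at chr12:121766261. The 91 bp exon in the exon 4 peak has its border bases at chr12:121783929 and chr12:121783839, and the next site of that transcript is at chr12:121783754, 47 bp beyond the peak.
HECTD4 exon 50, 5′ splice site: AACgtaagt
HECTD4 exon 59, 5′ splice site: TGGgtgagt
ANAPC5 exon 10, 5′ splice site: CAGgtaggt
HECTD4 exon 50, 3′ splice site: tcatttggtctcctttccagAAC
HECTD4 exon 59, 3′ splice site: cacccatccctccttctcagCTC
HECTD4 exon 61, 3′ splice site: actattttcatttgcctcagGAA
ANAPC5 exon 4, 3′ splice site: tctctcgtcttattttgtagGTT
ANAPC5 91 bp exon, 3′ splice site: tcttactcttctgaaggaagAAT
ANAPC5 91 bp exon, 5′ splice site: TTTgtaggt
ANAPC5 next exon of that transcript, 3′ splice site: aactgtacactgcccttcagCAG
ANAPC5 exon 10, upstream 3′ splice site: gggtatatctgtccccttagTAC
ANAPC5 exon 10, downstream 3′ splice site: tacagtcccttgttcaacagAGA
Each 5′ splice site shown had GT at the start of its intron, and each 3′ splice site shown had AG at the end. Of the 75 HECTD4 introns, 74 began with GT and all 75 ended with AG, while all 16 ANAPC5 introns had both. The exception was HECTD4 intron 49. Its 3′ splice site is the one shown for exon 50, which lies 56 bp from the exon 50 peak.

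Against the consensus CAGGTAAGT, the 5′ splice site of HECTD4 exon 50 matched at 7 of 9 bases and that of exon 59 at 6, where the median over the HECTD4 introns was 6 (range 4 to 9). The 5′ splice site of ANAPC5 exon 10 matched at 8 bases, and that of the 91 bp exon at 5, where the median over the canonical ANAPC5 introns was 7 (range 5 to 8). The share of pyrimidines in the 18 bases before the AG was 83.3% at HECTD4 exon 50, 88.9% at exon 59 and 77.8% at exon 61, with a median of 77.8% over the gene (range 44.4 to 100%). In ANAPC5 it was 83.3% at the canonical site of exon 4, 61.1% at the 91 bp exon, 66.7% at the next site of that transcript and 66.7% at both 3′ splice sites of exon 10. The median over the canonical ANAPC5 introns was 77.8% (range 61.1 to 88.9%). The canonical sites at the peaks are part of these ranges. The other ANAPC5 sites also fell within the range of the canonical ANAPC5 introns, the 91 bp exon at its lower end.

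The regions assigned by the authors were then set against the annotation. An intron label was taken to differ if the peak overlapped an exon of any transcript by 1 bp or more. An exon label was taken to differ only if no exon was overlapped, so intron labels could differ more easily. The list assigned 4 HECTD4 peaks to exons and each overlapped an exon, and the HECTD4 peak assigned to an intron overlapped none. Both ANAPC5 peaks were assigned to introns and both overlapped an exon, so the label differed from the annotation for 2 of the 7 peaks. Over all 250 matched peaks assigned to an exon or an intron the label differed for 39 (15.6%, 95% Wilson interval 11.6 to 20.6%). All 39 were among the 148 assigned to introns (26.4%, 19.9 to 34.0%), they came from 26 genes, and 20 of them held a 3′ splice site and 12 a 5′ splice site of the canonical transcript. The ANAPC5 peaks were thus 2 of a larger group of intron labels on peaks that reach into an exon. Of the 21 genes with at least 2 matched intron peaks, 6 had an exon under every one of them, and ANAPC5 was one of these.

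When a peak was called exonic only where its midpoint lay in an exon of the canonical transcript, a rule chosen after seeing the data, the call was the same as the label for 7 of 7 peaks and for 245 of the 250 (98%). With any overlapping base of any transcript, 211 of the 250 calls were the same as the label (84.4%). Changing only the transcripts, to the canonical one, gave 222 (88.8%) and 5 of the 7, and changing only the part of the peak, to its midpoint, gave 235 (94%) and 6 of the 7. Over the 250 peaks each change brought the calls closer to the labels, while for the 7 peaks the change of transcripts alone moved no count. Which labels differed depended on the rule. With any base of the canonical transcript, 25 intron labels and 3 exon labels differed. With the midpoint and the canonical transcript, 5 exon labels and no intron label differed. The midpoint of the ANAPC5 exon 4 peak lay in intron 3, and that of the exon 10 peak fell on the border itself, between the last intron base and the first exon base, and was counted as intron. An intron label in this list therefore did not mean that a peak was free of exon bases. The list cites the transcripts NM_001137559.1 and NM_016237.4 for the ANAPC5 peaks, and XM_005253871.1 for 4 HECTD4 peaks and XM_005253873.1 for the one in intron 56. The exon positions of those transcript versions were not used here, so the labels were compared with GENCODE models only.

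The base composition of the peaks differed between the genes. The HECTD4 peaks in exons had a GC content of 58.0% at exon 50, 62.0% at exon 59 and 67.5% at each of the exon 61 peaks, where the median over all bins of the gene was 43.0% and over its exon bins 48.0%. These values stood at the 95.2, 97.4 and 99.4 percentile of the HECTD4 bins. The intron 56 peak had 49.0% and stood at the 72.8 percentile. The ANAPC5 peaks had 46.5% at exon 4 and 47.5% at exon 10, against a median of 45.5% over all bins of that gene and 42.5% over its exon bins, at the 56.0 and 61.7 percentile of all bins. The exonic peaks of HECTD4 were thus among the bins of highest GC content in their gene and the ANAPC5 peaks were not. Among the 91 matched chromosome 12 peaks of the same width, the 65 that overlap an exon had a median GC content of 48.0% (quartiles 39.5 and 56.5%) and the 26 that do not had 41.2%, so the exonic HECTD4 peaks also lay above the upper quartile of narrow exonic peaks. The part that base composition of the reads played was not tested.

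**Figure D4:**
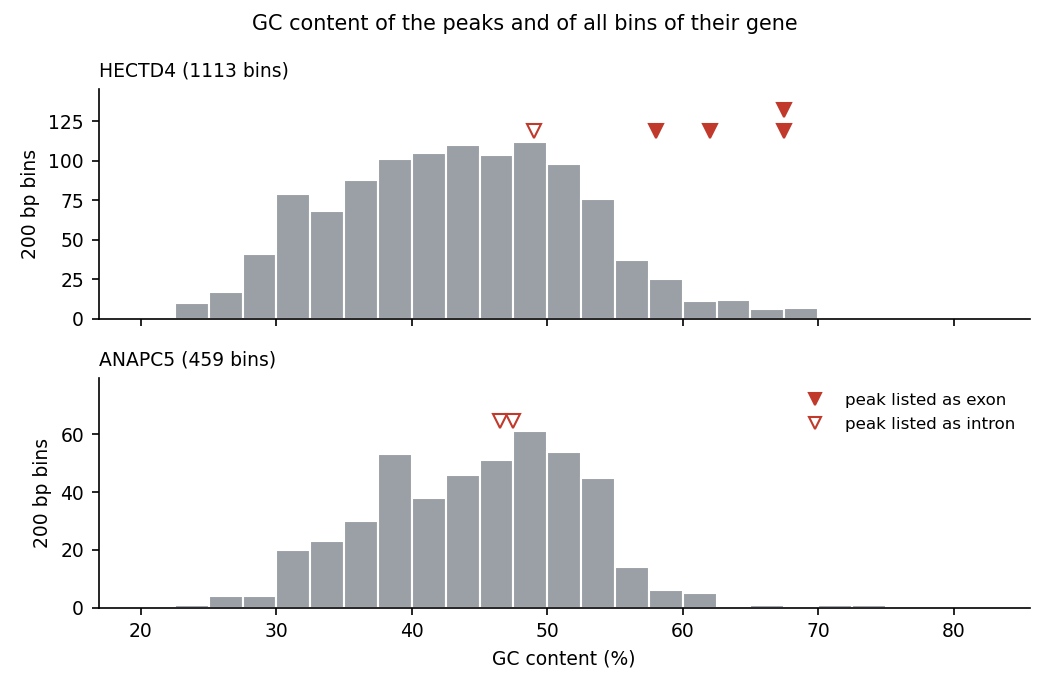
Number of 200 bp bins of HECTD4 (top) and ANAPC5 (bottom) by GC content in percent, as grey bars, with the peaks as triangles, filled where listed as exon and open where listed as intron. The exonic HECTD4 peaks lie at the upper end, from 58.0 to 67.5%, and the ANAPC5 peaks lie near the middle, at 46.5 and 47.5%.

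No other annotated gene overlapped any of the 7 peaks, so the missing strand in the list leaves 1 candidate gene at each. None of the 7 had another copy in hg19 that aligned at 95% identity or more across 80% or more of its length, against 49 of the 368 listed peaks (13.3%). The 7 positions thus had no second copy by these limits, and shorter or more diverged repeats were not excluded.

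The nearest listed genes were at some distance. HECTD4 was flanked by NAA25, the auxiliary subunit of an N-terminal acetyltransferase, with 1 peak in its 3′ UTR 155200 bp away, and by PTPN11, a tyrosine phosphatase of growth factor signalling, with 1 intron peak 244400 bp away. ANAPC5 was flanked by KDM2B, 93600 bp away, and by PXN, which encodes the focal adhesion protein paxillin, 1102600 bp away, each with 2 peaks. The closest peaks of HECTD4 and ANAPC5 were 9118200 bp apart, so the 2 genes do not form a cluster of peaks although they share chromosome 12.

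Genes with the most similar assignment of peaks were found among the 48 protein-coding genes with at least 2 peaks, by the sum of the absolute differences between their shares of peaks in each region. HECTD4 was most like KMT2D, a histone methyltransferase gene, with 3 exon peaks and 1 intron peak (distance 0.1). Next, 10 genes tied at distance 0.4. Of these, ANKRD11, a chromatin regulator, and GCN1L1, an activator of the amino acid starvation response, each with 3 exon peaks, come first by closeness in number of peaks and then by name. The named genes differed in position: all 4 peaks of KMT2D and all 3 of GCN1L1 lay within 100 bp of a splice site, and none of the 3 of ANKRD11 did. ANAPC5, with intron labels alone, was at distance 0 from 9 genes, of which CCDC65 (a subunit of motile cilia), EWSR1 (an RNA-binding protein) and MRPS6 (a mitochondrial ribosomal protein) have 2 peaks each and come first by name. Both EWSR1 peaks overlapped an exon, as those of ANAPC5 did, and no peak of CCDC65 or MRPS6 did, so the same intron label stood for different positions.

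Listed peaks were also counted in the rest of the ubiquitin pathway, in 5 lists of 106 genes. The listed peaks lie on 8 chromosomes, which carry 37 of these genes, and 9 of the 37 had a peak. On chromosome 12 it was 7 of 11. Over all protein-coding genes, 140 of 7607 on those 8 chromosomes were named by a listed peak (1.84%), and 73 of 1040 on chromosome 12 (7.02%). The lists were drawn up with the listed genes known, so nothing is read from the higher share in them. HECTD4 was the only one of 28 HECT ligase genes with a peak, where 6 of the 28 lie on the listed chromosomes and UBE3B, the other HECT gene on chromosome 12, had none. ANAPC5 was the only one of 16 genes for APC/C subunits and coactivators, where again 6 lie on the listed chromosomes and ANAPC7, a further APC/C subunit on chromosome 12, had none. A gene without a listed peak is not shown to be unbound, since expression and depth were not analysed here.

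Of 31 genes for E2 enzymes, which hand ubiquitin to the ligases, 11 lie on the listed chromosomes and UBE2N alone had a peak. It is also the only one of them on chromosome 12. Like those of ANAPC5, its peak was assigned to an intron, yet all of its 400 bp overlapped exons of annotated transcripts and included splice sites. Among 15 genes for APC/C substrates and the separase step, 6 lie on the listed chromosomes and 3 had a peak, all assigned to exons. These include both genes of the list on chromosome 12, FOXM1 and ESPL1. The peak of FOXM1, a transcription factor of mitotic genes, held a 3′ splice site and 120 bp of exon. FOXM1 served in the study as negative control of a RIP-PCR on FLAG-USP39 cells, which was not analysed here. The peaks of ESPL1, which encodes the separase that cuts cohesin, and of CENPF, a kinetochore protein gene, lay wholly in exons at 296 and 1033 bp from the nearest splice site. The ANAPC5 peaks thus lay closer to splice sites than those of ESPL1 and CENPF.

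Among 16 other ubiquitin ligase subunit genes, 8 lie on the listed chromosomes and 3 had a peak, again assigned to exons. On chromosome 12, KDM2B and SOCS2 had a peak and RNF34 and MDM2 had none. RNF213, a giant RING ligase gene, had a peak 543 bp from the nearest splice site, in the manner of the second exon 61 peak of HECTD4 at 497 bp. KDM2B, which encodes a histone demethylase with an F-box, had 1 peak across a 5′ splice site with 141 bp of exon and another 239 bp from the nearest site. SOCS2, an adaptor of cullin ligases that dampens cytokine signalling, had a wide peak of 1000 bp. The only gene of the 5 lists with more than 2 listed peaks was HECTD4.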

How the data were processed

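RNA from 1 FLAG-USP39 precipitate and 1 input library of A2780 cells was sequenced. The authors trimmed reads, removed rRNA, aligned to hg19 with TopHat2 2.0.13 and called and annotated peaks with RIPSeeker, a hidden Markov model on binned reads. The deposited positions are first and last bases of bins, 200 bp on chromosome 12, without counts, and read depth was not analysed here.

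Positions were compared with GENCODE release 44 lifted to GRCh37, with the annotation's canonical transcript for exon and codon numbers (pysam 0.24.0). Wilson intervals came from scipy 1.17.1. Copies were sought with minimap2 2.31. The copy search was tested on simulated data. Named genes were HECTD4 and ANAPC5, pathway genes with a peak, the nearest listed genes and up to 3 genes with the most similar regions. The members and lists were chosen with earlier results of these data known. Alternatives were other windows, overlaps, transcripts, peak midpoints, copy limits and merging. No test was made, since each group has 1 library.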

Additional observations from a re-analysis of the deposited data

How the results depend on the processing

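Of 24 alternatives, 20 kept the value of their result within the limits used and none reversed it. The number of the 7 peaks near a splice site was 4 with a window of 50 bp, 6 with 200 bp and 4 by peak midpoint. Exon overlap stayed at 6 peaks except for 5 when 50 bp of the canonical transcript was required, and coding overlap was 6 or 5. The number of labels that differ from the annotation fell from 2 to 0 by midpoint and canonical transcript, and to 1 when 50 bp of a canonical exon was required, because the ANAPC5 exon 4 peak has 34 bp of exon. With the canonical transcript alone, the share of ANAPC5 bins overlapping an exon was 6.97% in place of 17.2%, since fewer exons were counted. These alternatives on canonical transcripts with 50 bp, midpoint labels and bins were chosen after seeing the data. Merging peaks no more than 1000 bp apart gave 3 HECTD4 peaks in place of 5.

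No paired analysis was possible because there was 1 library of each kind. The stricter threshold was left out, as no score is listed for a peak. Without read counts, the strength of a peak and the depth behind an absent one were not examined, and the bin of 200 bp limits the distances given for HECTD4 and ANAPC5.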
